A study of Homo sapiens with 6 samples.

Results

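The 37 genes of the human mitochondrial genome were examined in SH-SY5Y, a neuroblastoma cell line, by sequencing of RNA captured on oligo(dT) beads. They were chosen as every gene whose name starts with MT-, 37 of the 32862 genes in the deposited table, and comprise 13 mRNAs, 2 rRNAs and 22 tRNAs. In cells labelled OTULIN KO the gene OTULIN, for a deubiquitinase of linear ubiquitin chains, had been disrupted with CRISPR-Cas9, and they were compared with cells labelled wild type (WT). Both groups were untreated, were kept in serum-supplemented medium and had 3 libraries each. The titles of the 6 libraries name no batch, so a batch difference between the groups was not tested. The labels do not say whether the KO cells were 1 clone or whether libraries came from separate cultures, so the p-values rest on a spread between libraries that may be purely technical. The study compared gene expression between the genotypes.

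The mitochondrial genome is a small circle present in many copies per cell, and all its proteins are subunits of the respiratory chain or of ATP synthase, the enzymes on which neurons draw for most of their ATP. Both of its strands are transcribed as long precursors by a dedicated polymerase, and the mRNAs and rRNAs are freed when the tRNAs lying between them are cut out. Most of the released mRNAs then receive a short poly(A) tail, while MT-ND6, the one mRNA of the minus strand, is known to carry little or none. The rRNAs carry very short tails and the tRNAs end in CCA, so a library made on oligo(dT) beads does not sample the 3 classes alike.

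The genes abut each other, and their sequences show features that bear on the counts. The sequences below come from the GENCODE 29 transcripts for GRCh38, in which all 37 genes have the position and strand given in the deposited table. The first 2 are the places where mRNA genes share more than 1 base on the plus strand, with the shared bases in capitals. They are shown because a read over those bases belongs to both genes.
MT-ATP8 and MT-ATP6, chrMT:8517-8572, plus strand: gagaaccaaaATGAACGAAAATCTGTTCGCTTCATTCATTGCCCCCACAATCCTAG
MT-ND4L and MT-ND4, chrMT:10750-10776, plus strand: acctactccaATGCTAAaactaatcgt

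The shared stretch is 46 bases in MT-ATP8 and MT-ATP6, or 22.2% of MT-ATP8, and 7 bases in MT-ND4L and MT-ND4. MT-ATP6 and MT-CO3 share 1 base, not printed. The next 5 sequences are gene ends, with the last codon in capitals where it is whole and the leftover bases in capitals where it is not. They are shown because the poly(A) tail completes the stop codon of the genes that end in T or TA, and the same tail is what oligo(dT) beads capture.
MT-CO1, chrMT:7428-7445, plus strand: gtatacataaaatctAGA
MT-CO2, chrMT:8252-8269, plus strand: cccgtatttaccctaTAG
MT-CO3, chrMT:9975-9990, plus strand: tattgatgagggtctT
MT-ND1, chrMT:4246-4262, plus strand: attccccctcaaaccTA
MT-ND6, chrMT:14149-14166, minus strand: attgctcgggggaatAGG

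Of the 13 mRNA genes, 6 end without a whole stop codon: MT-ND1 ends in TA, and MT-ND2, MT-CO3, MT-ND3, MT-ND4 and MT-CYB end in T. The other 7 end in a whole codon. The last 6 sequences are tRNA genes that differed most in reads, with the anticodon in capitals. They are shown because 5 were among the most counted tRNAs and MT-TW was the least counted.
MT-TL1 (leucine), chrMT:3230-3304, plus strand: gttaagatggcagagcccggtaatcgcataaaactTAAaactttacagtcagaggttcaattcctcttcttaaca
MT-TN (asparagine), chrMT:5657-5729, minus strand: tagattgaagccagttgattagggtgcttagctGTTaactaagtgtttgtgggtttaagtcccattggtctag
MT-TY (tyrosine), chrMT:5826-5891, minus strand: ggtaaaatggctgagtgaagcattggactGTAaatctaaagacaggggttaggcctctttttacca
MT-TC (cysteine), chrMT:5761-5826, minus strand: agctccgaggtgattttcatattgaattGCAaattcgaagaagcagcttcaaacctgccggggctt
MT-TS1 (serine), chrMT:7446-7514, minus strand: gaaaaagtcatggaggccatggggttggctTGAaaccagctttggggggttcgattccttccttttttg
MT-TW (tryptophan), chrMT:5512-5579, plus strand: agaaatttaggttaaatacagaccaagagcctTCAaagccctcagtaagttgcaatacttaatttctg

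The libraries of the 2 groups were of very different depth. The KO libraries held 725827 to 862932 counts and the WT libraries 61772795 to 64352333, and 2306 to 2567 genes had a count in KO libraries against 27453 to 27958 in WT libraries. OTULIN itself had 0 counts in every KO library and 1682, 2101 and 2155 in WT libraries 1, 2 and 3, but 71.3% of the 10820 tested genes were also at 0 in every KO library, so its absence does not check the labels. Loci overlapping 18S rRNA genes took 28.6% ± 8.6 of the counts in KO libraries and 0.575% ± 0.22 in WT libraries (SD, n = 3 each). Of 12 adrenergic neuroblastoma markers, 7 were at 0 in every KO library, among them PHOX2A, TH and DBH, and their summed level was 736 to 885 CPM (counts scaled to the library total) in KO and 7377 to 8257 CPM in WT. Summed markers were at 17.3 to 62.6 CPM in KO and 7.75 to 40.02 CPM in WT for epithelium, at 0 to 6.89 and 0.466 to 2.31 CPM for blood, and at 0 to 26.7 and 0 to 1.34 CPM for glia and endothelium. Whether the KO columns hold a complete quantification of those libraries was not tested, nor was the part of depth and marker levels in the results below. For the 18S loci, values without them are given.

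In WT cells the mitochondrial transcripts were the most abundant RNAs of the library. Their 5410281, 5429738 and 5196299 counts made up 8.70%, 8.44% and 8.41% of libraries 1, 2 and 3, and 31.4% ± 0.096 of the summed FPKM (SD, n = 3). FPKM is the authors' level per gene length, in fragments per kilobase scaled to the fragments of the library, and all comparisons of level between genes use it. Each of the 10 genes with the highest mean WT FPKM was mitochondrially encoded, as were 12 of the top 15 and 15 of the top 20. Of the mitochondrial counts in WT, 83.3% ± 0.36 fell on mRNAs, 16.0% ± 0.31 on rRNAs and 0.734% ± 0.052 on tRNAs. The mRNAs were thus the bulk of what was counted, in an RNA fraction selected for poly(A).

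Complex IV, cytochrome c oxidase, which passes electrons to oxygen, had the highest mRNA levels in WT. MT-CO1, its catalytic subunit, had 10355, 10587 and 10448 FPKM in WT libraries 1, 2 and 3. MT-CO3, a core subunit, had 9601, 9239 and 9142 FPKM, and MT-CO2, which takes electrons from cytochrome c, had 9360, 8738 and 8716 FPKM. MT-CO1 lay above both others in every library, whereas the ranges of MT-CO3 and MT-CO2 overlapped. The ratio of MT-CO1 to MT-CO2 was 1.17 ± 0.057 (SD, n = 3).

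The pair of complex V, ATP synthase, came next in WT. MT-ATP6, the membrane subunit of its proton channel, had 7899, 7767 and 7804 FPKM, and MT-ATP8, a small subunit beside it, had 7921, 7175 and 7794 FPKM. These mRNAs are made as one transcript with overlapping frames, and their levels per length did not separate: the ratio of MT-ATP8 to MT-ATP6 was 0.975 ± 0.044 in WT (SD, n = 3), and MT-ATP6 was higher in 2 of 3 libraries. With reads of the nuclear copies described at the end added, WT means were 9324 FPKM for MT-ATP6 and 7634 FPKM for MT-ATP8. The near parity thus held only without the copies, and the origin of those reads was not tested. The other overlapping pair printed above differed in level. MT-ND4L had 3777, 4038 and 4065 FPKM and MT-ND4 had 7245, 6949 and 6911 FPKM in WT, a ratio of 0.564 ± 0.037 (SD, n = 3). MT-ND4 was higher in every WT library although the 2 genes, both for membrane subunits of complex I, are also carried on one transcript. MT-ND4L is 297 bases long and MT-ND4 1378, and the deposited FPKM divides by the whole gene length, so the part of gene length in this ratio was not tested.

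Complex I, NADH dehydrogenase, where electrons enter the chain, held both high and low mRNAs. MT-ND1, at the junction of its membrane and peripheral arms, had 6702, 5618 and 5262 FPKM in WT libraries 1, 2 and 3, and MT-ND2, a proton-pumping membrane subunit, had 4720, 4822 and 4842 FPKM. The lowest 3 of the 13 mRNAs also belonged to complex I: MT-ND5, a proton-pumping subunit at the far end of the membrane arm, had 1063, 1013 and 1006 FPKM, MT-ND6 had 893, 745 and 692 FPKM, and MT-ND3 had 709, 717 and 784 FPKM. MT-ND5 lay above both others, and the ranges of MT-ND6 and MT-ND3 overlapped. The strandedness of the libraries is not given, so reads of MT-ND6 and of plus-strand RNA over the same bases cannot be told apart. All values for MT-ND6 carry this limit. The highest mRNA exceeded the lowest 14.8 ± 0.25 fold within a WT library (SD, n = 3). The lowest was MT-ND3 in WT libraries 1 and 2 and MT-ND6 in library 3. For the fixed pair MT-CO1 over MT-ND3 the ratio was 14.2 ± 0.79 (SD, n = 3). MT-CYB, the cytochrome b of complex III and its only mitochondrially encoded subunit, had 4226, 3826 and 3968 FPKM. MT-CYB follows MT-ND5, MT-ND6 and MT-TE along the genome and was at 3.90 ± 0.11 times the level of MT-ND5.

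By complex, the median mRNA level in WT was 3960 ± 159 FPKM for the 7 genes of complex I, 9327 ± 242 FPKM for the 3 genes of complex IV and 7727 ± 228 FPKM for the 2 genes of complex V (SD over 3 libraries), beside 4007 ± 203 FPKM for MT-CYB. The ratio of the complex IV median to the complex I median was 2.36 ± 0.16.

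The rRNAs did not stand above the mRNAs in this poly(A)-selected RNA. MT-RNR2, the RNA of the large mitochondrial ribosomal subunit, had 7058, 7168 and 7158 FPKM in WT, and MT-RNR1, that of the small subunit, had 1561, 1352 and 1412 FPKM. The ratio of MT-RNR2 to MT-RNR1 was 4.96 ± 0.40 although the ribosome holds one of each, and the mean of the rRNAs over the median of the 13 mRNAs was 0.738 ± 0.087 (SD, n = 3). MT-RNR2 lay level with MT-ND4, with overlapping ranges, and MT-RNR1 lay below MT-ND4L and above MT-ND5.

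**Figure D1:**
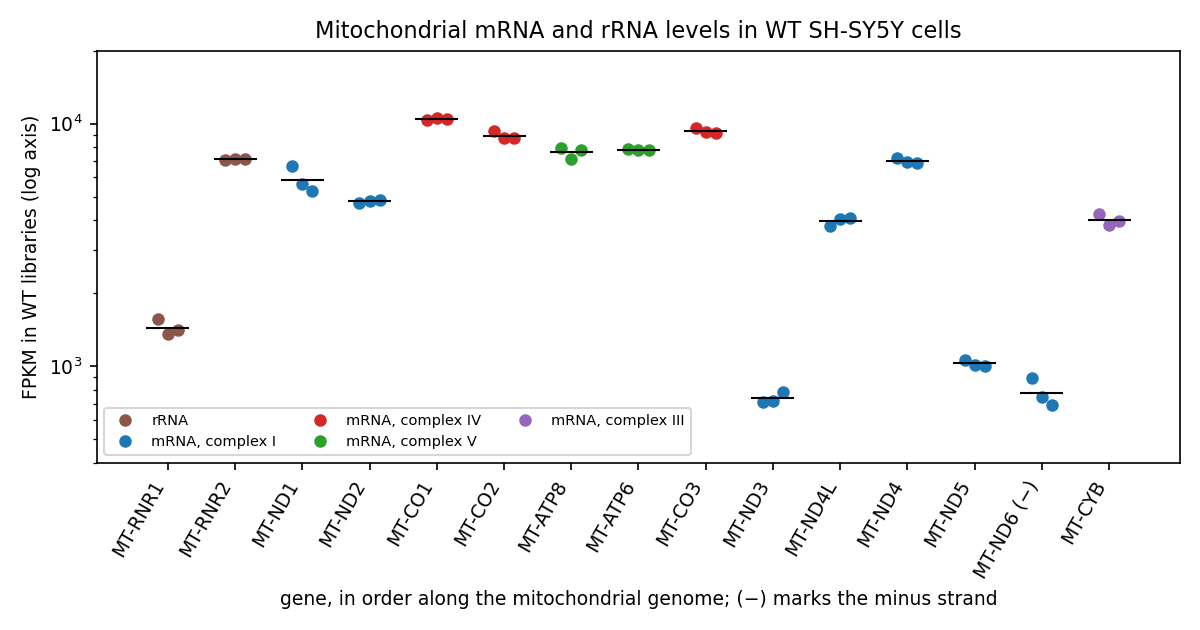
FPKM (vertical log axis) of the 13 mRNAs and 2 rRNAs in the 3 WT libraries (points) with their mean (line), in order along the mitochondrial genome and coloured by complex. MT-CO1, MT-CO2 and MT-CO3 are the highest, and MT-ND3, MT-ND5 and MT-ND6 the lowest mRNAs.

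Of the 14 neighbouring pairs in the order of the 15 genes, 9 were separated, meaning the same gene was higher in all 3 WT libraries and the ranges did not overlap. The 5 pairs that did not separate were MT-CO3 and MT-CO2, MT-ATP6 and MT-ATP8, MT-RNR2 and MT-ND4, MT-CYB and MT-ND4L, and MT-ND6 and MT-ND3. Among the mRNAs alone 7 of 12 neighbouring pairs separated. The order was neither that of the genome nor that of gene length. Over the 12 mRNAs of the plus strand, which share a precursor and these libraries, level and position along the genome had a Spearman rho of -0.48, and over all 13 mRNAs level and gene length had a rho of 0.19, both given as descriptions. Genes with an incomplete stop codon spanned 737 to 9327 FPKM and genes with a whole one 777 to 10463 FPKM, so the ends printed above did not sort the levels.

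WT library 1 differed from the other WT libraries in some members. MT-ND1 and MT-ND6 in that library were 1.23 and 1.24 times the mean of the other WT libraries, and they had the largest coefficients of variation of the 13 mRNAs, 12.8% and 13.4%. In the same library MT-TA, MT-TN and MT-TC were at 0.750, 0.763 and 0.791 times the mean of the other WT libraries, and MT-TE and MT-TS1, also on the minus strand, were at 1.33 and 1.16 times that mean. Library 1 was the highest of the 3 for 17 members and the lowest for 19.

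Reads over the tRNA genes were few and very uneven in WT. A mature tRNA is short, highly modified and lacks a poly(A) tail, and the sources used here give neither the fragment length nor the strandedness of the libraries, so reads of a tRNA, of an uncut precursor and of the opposite strand cannot be told apart. The 4 most counted tRNAs were MT-TN, MT-TL1, MT-TY and MT-TC. MT-TN had 1023, 1352 and 1327 FPKM and MT-TL1 had 1263, 1195 and 1103 FPKM in WT libraries 1, 2 and 3. MT-TY had 1180, 1417 and 1380 FPKM, and MT-TC had 1007, 1306 and 1241 FPKM. These values were of the order of MT-ND5 and MT-RNR1. At the other end MT-TQ, for glutamine, had 56.0, 53.7 and 45.8 FPKM and MT-TW had 9.65, 9.99 and 11.3 FPKM, on 45, 48 and 52 counts.

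The tRNAs fell into a high and a low set in WT. MT-TS1 and MT-TA, chosen after their values were seen, had means of 1039 and 754 FPKM and joined the 4 above to make 6 genes over 500 FPKM, with 81.8% ± 0.88 of the tRNA counts (SD, n = 3). The other 16 lay between 10.3 FPKM for MT-TW and 176 FPKM for MT-TV. Of the 6 high genes 5 are on the minus strand, where 8 of the 22 tRNA genes lie. MT-TA, MT-TN, MT-TC and MT-TY lie together between MT-ND2 and MT-CO1, and MT-TW, the lowest, lies just before them on the plus strand. MT-TS1 takes up the bases that follow the last codon of MT-CO1 printed above, on the opposite strand. MT-TL1, the one high gene of the plus strand, lies between MT-RNR2 and MT-ND1 and starts at the base after MT-RNR2. 

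**Figure D2:**
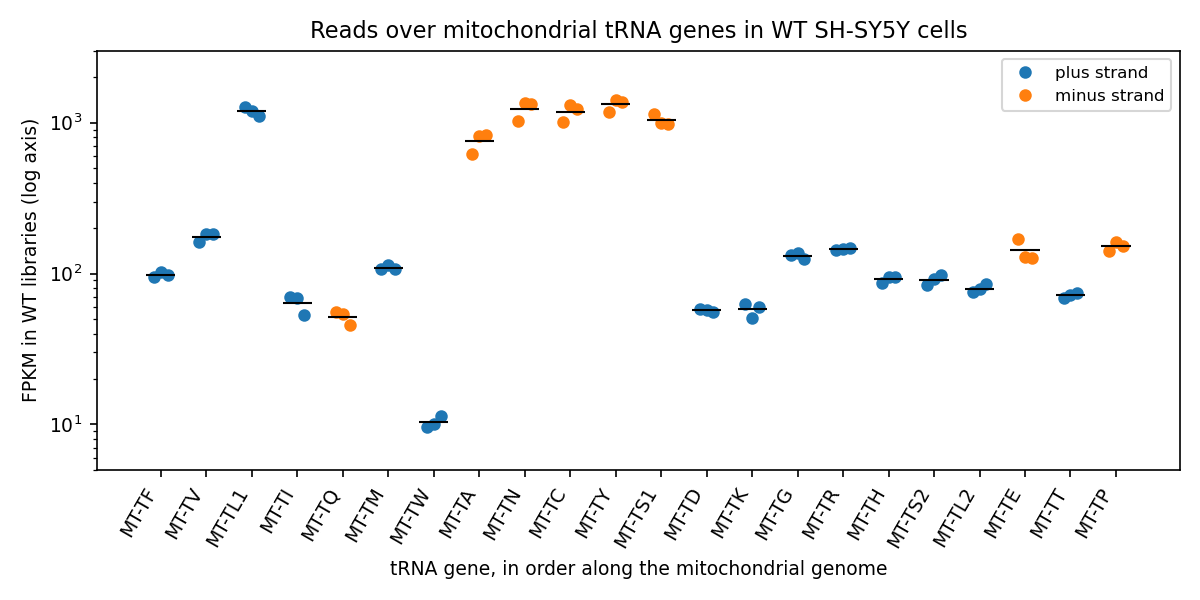
FPKM (vertical log axis) over the 22 tRNA genes in the 3 WT libraries (points) with their mean (line), in order along the mitochondrial genome and coloured by strand. MT-TL1 and the minus-strand genes MT-TA, MT-TN, MT-TC, MT-TY and MT-TS1 lie over 500 FPKM, and the others between 10.3 and 176 FPKM.

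The nuclear genome encodes the remaining subunits of the same complexes, and their deposited FPKM were far lower in WT. The 37 nuclear subunits of complex I had a median of 14.3 ± 0.56 FPKM, so that the mitochondrially encoded median was 278 ± 22 times higher (SD, n = 3). The corresponding ratio was 166 ± 12 for complex III with 9 nuclear subunits, 254 ± 20 for complex IV with 11 and 325 ± 5.2 for complex V with 18. Each of the 13 mitochondrial mRNAs lay above every nuclear subunit of its complex by FPKM. MT-ND3, the lowest of complex I, had a mean of 737 FPKM and NDUFS5, the highest nuclear one, 141 FPKM. The gene length behind the FPKM of nuclear genes is not given. NDUFS8 and NDUFB7 of complex I had 53.6 and 57.0 CPM in WT but 10.9 and 97.7 FPKM. The lengths used thus differed widely, and their part in these ratios was not tested.

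**Figure D3:**
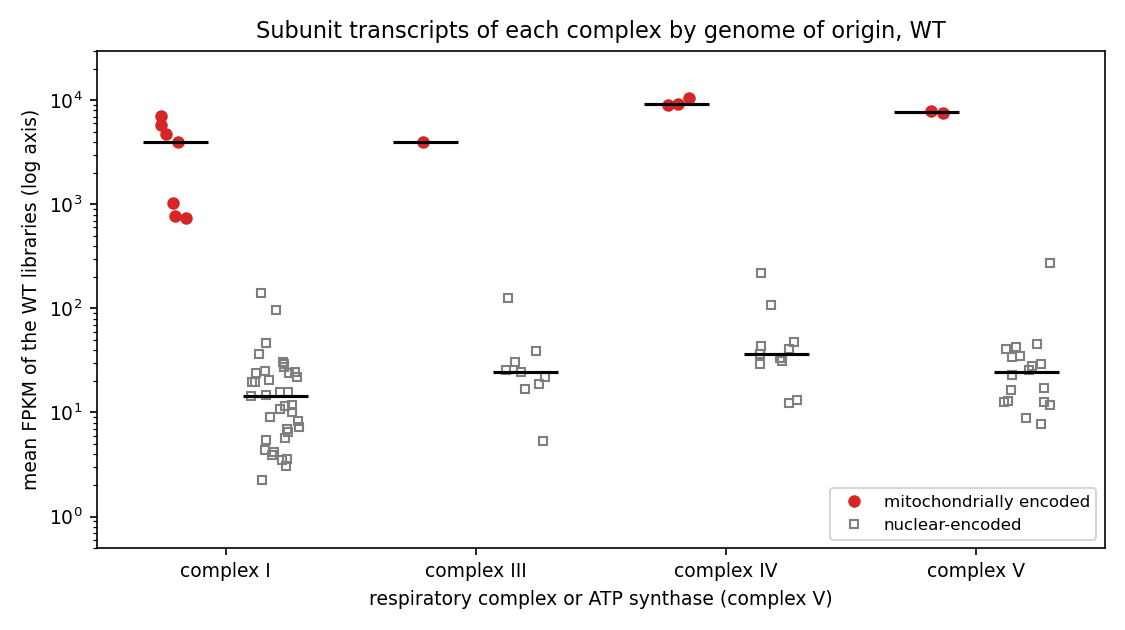
Mean FPKM of the 3 WT libraries (vertical log axis) for the mitochondrially encoded (filled) and nuclear-encoded (open) subunits of each complex, with medians as lines. In every complex the mitochondrially encoded genes lie above all nuclear ones.

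In the OTULIN KO libraries almost none of these transcripts were counted. The KO libraries held 36, 39 and 27 mitochondrial counts, 0.00445%, 0.00452% and 0.00372% of their totals, against 8.70%, 8.44% and 8.41% in the WT libraries. The groups did not overlap, and the WT share was 2014 times the KO share, or 1422 times with the 18S loci left out of the totals. By a two-sided exact permutation over libraries p was 0.1, the lowest value 3 against 3 libraries can reach. The share was read from libraries in which most genes had no count, and from these values an incomplete KO quantification, fewer mitochondrial genomes and less RNA from each cannot be told apart.

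All 37 genes were tested with edgeR (quasi-likelihood, TMM factors) among the 10820 genes whose mean over the 6 libraries reached 1 FPKM, and all 37 were lower in KO at a Benjamini-Hochberg adjusted p under 0.05 (adjusted p from 1.8e-07 for MT-CO3 to 0.030 for MT-TW). That count is read against a background in which 88.0% of all tested genes were called lower and 7.63% higher, 95.6% in all. Every KO value lay below every WT value for the 37 genes, as for 88.0% of all tested genes, and 25 of the 37 were at 0 in every KO library, against 71.3% of all tested genes. Among the 25 were the 22 tRNAs and 3 mRNAs, MT-ND3, MT-ND4L and MT-ND6. The direction and the zeros were therefore those of most genes in the table.

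The size of the difference was set beside that of other genes. For genes at 0 in KO the change is a bound, taken at 3 counts over the 2398362 counts of the KO group, or 1.25 CPM. The median log2 ratio of KO to WT CPM was -10.81 for the 15 mRNAs and rRNAs, with a range of -12.50 to -7.80, and -4.55 for all tested genes with a WT count. Over all 37 genes, with the tRNAs at their weak bounds, the median was -6.09. The bound rests on the WT level, and a gene low in WT cannot show a large ratio. Of the 489 other genes with a WT level at or above the 278 CPM of MT-ND3, the least counted mRNA, 32.3% were at 0 in every KO library, and their median log2 ratio was -7.53, beside -10.76 for the 13 mRNAs. Most of the mRNAs lay far above 278 CPM in WT, so these sets are not of like abundance, and the values are descriptions with no test.

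The 12 genes with a KO count were 694-fold to 6113-fold lower in KO by mean CPM. MT-CO3 had 4, 3 and 4 counts in KO libraries 1, 2 and 3, or 4.94, 3.48 and 5.51 CPM, against 8199, 7896 and 7826 CPM in the WT libraries, and its log2 change was -11.15 (SE 0.10, edgeR adjusted p = 1.8e-07). MT-ND4 had 3, 6 and 4 counts, or 3.71, 6.95 and 5.51 CPM, in KO, against 10875, 10439 and 10398 CPM in WT. These were the genes counted most evenly over the KO libraries, and their mean CPM was 1717-fold and 1961-fold lower in KO. For both the fold moved by less than 1.5 times when any KO library was left out.

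For the other 10 genes the fold moved by at least 1.5 times, or the KO counts went to 0, without some single KO library. Leaving out a KO library at 0 counts lowers the fold 1.5 times by arithmetic alone. MT-CYB had 3, 4 and 8 counts, or 3.71, 4.64 and 11.0 CPM, in KO, against 5253, 4760 and 4943 CPM in WT. It was 772-fold lower in KO (log2 change -10.03, SE 0.26, edgeR adjusted p = 1.3e-06), or 1195-fold without KO library 3. MT-ND5 had 0, 4 and 3 counts in KO and was 694-fold lower, the smallest factor of the 12, or 463-fold without KO library 1. MT-ATP6 had 4, 12 and 0 counts in KO and was 925-fold lower, or 2352-fold without KO library 2. At the other end MT-RNR2, with 2, 3 and 0 counts in KO, was 6113-fold lower, or 9810-fold without KO library 2 and 4075-fold without KO library 3. MT-CO1, with 11, 3 and 2 counts in KO, and MT-CO2, with 6, 0 and 2, were 2663-fold and 1967-fold lower, or 5646-fold and 4838-fold without KO library 1. MT-ND1 (3, 0 and 0), MT-ND2 (0, 0 and 4), MT-ATP8 (0, 2 and 0) and MT-RNR1 (0, 2 and 0) were each counted in a single KO library and were at 0 in KO without it.

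The 3 mRNAs at 0 in KO were among the less abundant in WT. MT-ND4L had 1222, 1308 and 1318 CPM, MT-ND6 had 511, 426 and 397 CPM, and MT-ND3 had 267, 270 and 296 CPM in WT. Against the floor they were at least 1025-fold, 355-fold and 222-fold lower in KO. The 22 tRNAs allowed weaker bounds. MT-TN, MT-TL1 and MT-TC were at least 78.5-fold, 77.6-fold and 68.2-fold lower in KO, and MT-TQ at least 3.26-fold. MT-TW at 0.770 CPM in WT lay under the KO floor, so no fold is given for it, and at its WT share 0.616 counts would be present in an average KO library. Its call was lost with library totals in place of TMM factors (edgeR adjusted p = 0.058), with DESeq2 (0.053) and without any single KO library (0.072 to 0.080).

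**Figure D4:**
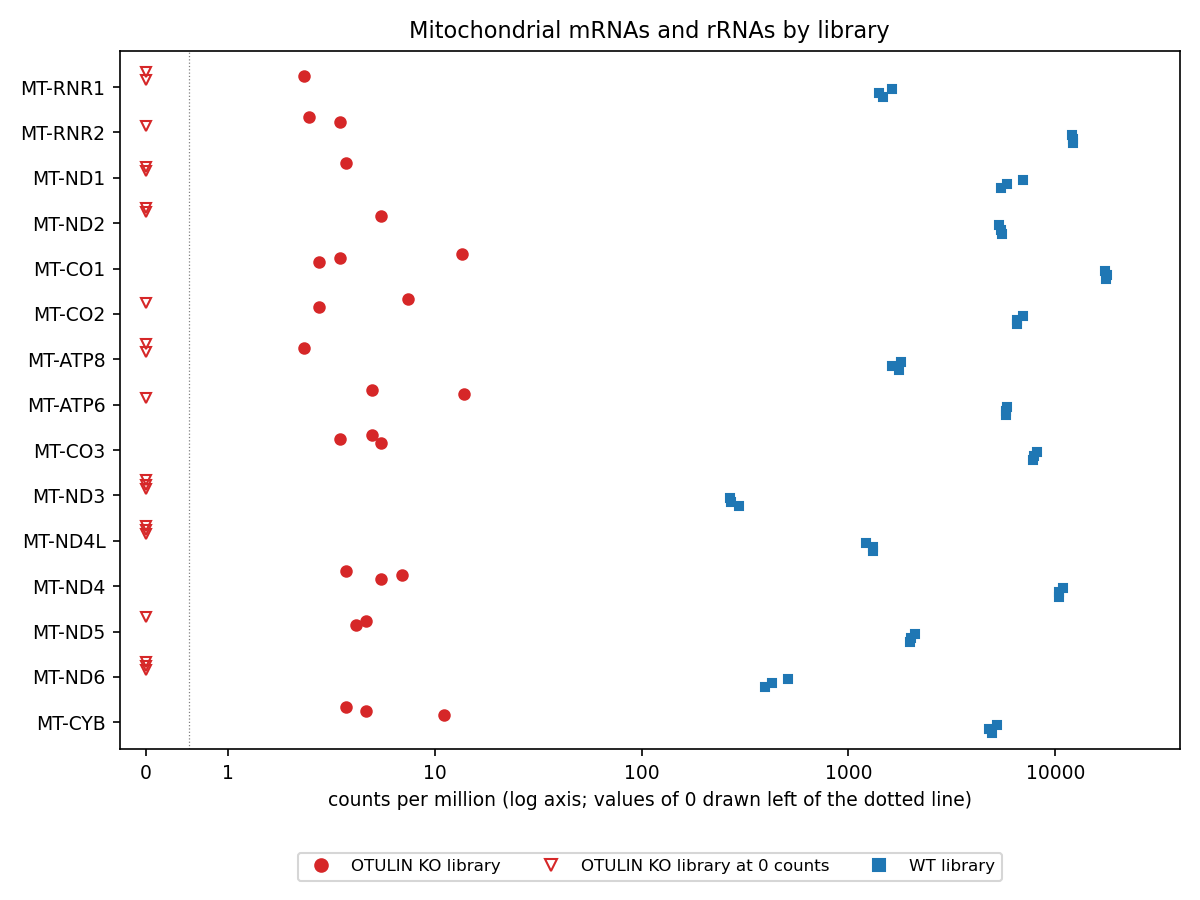
CPM (horizontal log axis) of the 13 mRNAs and 2 rRNAs in each OTULIN KO library (circles, upper) and WT library (squares, lower), with KO libraries at 0 counts as open triangles left of the dotted line. Every KO point lies left of every WT point, and MT-ND3, MT-ND4L and MT-ND6 have no KO count.

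The few KO counts were then compared in make-up with the WT mitochondrial counts, which does not depend on library totals. Of the 102 KO counts, 95 fell on mRNAs, 7 on rRNAs and 0 on tRNAs. The rRNA share was 5.56%, 12.8% and 0% in KO libraries 1, 2 and 3, against 15.6%, 16.1% and 16.2% in the WT libraries. Exact binomial intervals in KO libraries 1, 2 and 3 were 0.680% to 18.7%, 4.30% to 27.4% and 0% to 12.8%. The WT shares lay inside the first 2 of these and above the last. The groups did not overlap, with means of 6.13% ± 6.4 in KO libraries and 16.0% ± 0.31 in WT libraries (SD, n = 3 each; two-sided exact permutation p = 0.1, the smallest possible). As a share of summed FPKM the rRNAs held 4.37% in KO and 9.61% in WT, the groups overlapped, and the exact permutation p was 0.2. Pooled, 7 of 102 is 6.86%, with an exact binomial interval of 2.80% to 13.6%. The absence of tRNA counts is not informative at this depth, since 0 of 102 allows a share up to 3.55% by the exact interval and the WT share would give 0.749 counts.

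By gene, the pooled KO counts were set beside the number that the mean WT share of mitochondrial counts would give. For 33 of the 37 genes that number lay inside the exact 95% Poisson interval of the KO count, and for 4 it lay outside. MT-RNR2 had 5 KO counts (interval 1.62 to 11.7) where the WT share gave 14.5. MT-CYB had 15 (8.40 to 24.7) where it gave 5.97, MT-ATP6 had 16 (9.15 to 26.0) where it gave 6.96, and MT-ND5 had 7 (2.81 to 14.4) where it gave 2.43. Such intervals cover counting error only and no adjustment was made over the 37 genes. They also assume Poisson counts, which was not formally tested. Every KO value above 0 of these genes was 2 or more in its library, where Poisson counts this low would often be 1. The intervals may therefore be too narrow, and inside or outside holds only under that model. Without KO library 2 MT-ATP6 had 4 counts where the WT share gave 4.30, without KO library 3 MT-CYB had 7 (2.81 to 14.4) where it gave 4.39, and MT-RNR2 had 5 (1.62 to 11.7) where it gave 10.7. Also without KO library 3, MT-ND5 had 4 (1.09 to 10.2) where it gave 1.79. In these cases the number moved inside the interval. Without KO library 2 it stayed outside for MT-CYB, with 11 counts (5.49 to 19.7) where the WT share gave 3.69, and for MT-RNR2, with 2 (0.242 to 7.22) where it gave 8.97. Without KO library 1 it was outside for MT-CO1 as well, with 5 counts (1.62 to 11.7) where the WT share gave 13.6. The 25 genes at 0 together would have had 3.15 counts, with MT-ND4L the largest at 1.54, so their zeros carry little about make-up.

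**Figure D5:**
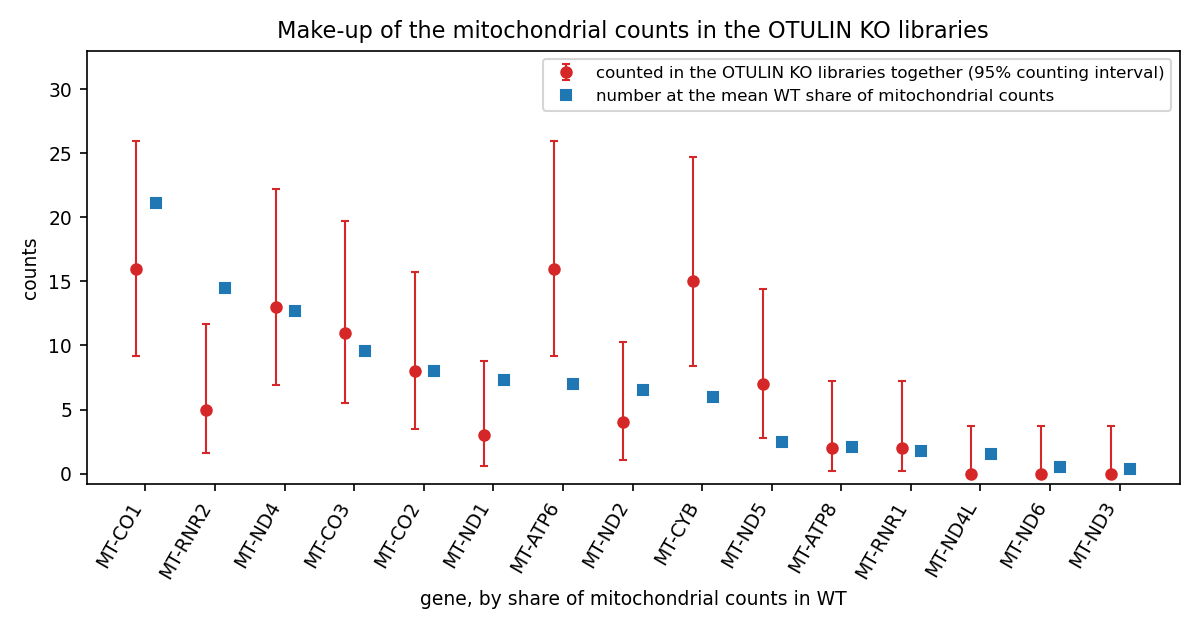
Counts pooled over the 3 OTULIN KO libraries (circles, with exact 95% Poisson intervals) and the number given by the mean WT share of mitochondrial counts (squares) for the 13 mRNAs and 2 rRNAs, ordered by WT share. The square lies above the interval for MT-RNR2 and below it for MT-ATP6, MT-CYB and MT-ND5.

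By complex, the shares of mRNA counts were compared over libraries, with the pooled share of the 95 KO counts given. Complex I held 28.4% in KO and 36.9% ± 0.59 in WT (two-sided exact permutation p = 0.4), complex IV 36.8% in KO and 45.5% ± 0.63 in WT (exact p = 0.6), and complex V 18.9% in KO and 10.6% ± 0.18 in WT (exact p = 0.7). MT-CYB of complex III held 15.8% in KO and 7.03% ± 0.22 in WT (exact p = 0.1). The KO libraries disagreed among themselves: complex IV had 21, 6 and 8 counts and complex V had 4, 14 and 0 in KO libraries 1, 2 and 3.

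The nuclear genes that transcribe, process and translate the mitochondrial genome were also near absent from the KO libraries. Of 162 tested, 162 were lower in KO by edgeR and none was higher, where 88.0% of all tested genes were lower, and 152 of the 162 were at 0 in every KO library, where 71.3% of all tested genes were. Their median log2 ratio of KO to WT CPM was -4.94, beside -4.55 for all tested genes, and their summed level was 34.3 ± 19 CPM in the KO libraries, against 8325 ± 87 CPM in the WT libraries (SD, n = 3 each). The lists, which were not independent of earlier results on these libraries, are given by their steps.

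For transcription, 10 of 10 tested genes were lower in KO. POLRMT, the mitochondrial RNA polymerase, had 0, 10 and 4 counts in KO libraries 1, 2 and 3, against 4131, 3822 and 3671 in the WT libraries (10.8-fold lower by CPM; log2 change -3.79, SE 0.45, edgeR adjusted p = 0.00015). TFAM, which packages the genome and opens its promoters, and TFB2M, which melts the start site, had 0 counts in every KO library and were at least 60.1-fold and 41.3-fold lower than in WT. For replication and nucleotide supply 12 of 12 tested genes were lower, all at 0 in KO, including DGUOK, a deoxyguanosine kinase, and RNASEH1, which removes RNA primers.

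For RNA processing and stability 18 of 18 tested genes were lower in KO. LRPPRC, which binds and stabilises mitochondrial mRNAs, had 0, 11 and 20 counts in KO, against 18158, 21161 and 20813 in WT, 23.8-fold lower (log2 change -5.00, SE 0.64, edgeR adjusted p = 0.00022). TRMT10C and HSD17B10, which with PRORP form the RNase P that cuts the 5′ ends of the tRNAs, had 0, 3 and 0 counts and 0, 0 and 0 counts in KO, and FASTKD2, an RNA-binding protein of the ribosome assembly pathway, had 0, 4 and 0. The tRNA-modifying enzymes (10 of 10 lower, led in WT by YRDC and TRMT61B) and the aminoacyl-tRNA synthetases (17 of 17, led by IARS2 and HARS2) showed the same direction, with 2 KO counts in all, both of PUS1, a pseudouridine synthase. For translation 13 of 13 factors and 82 of 82 ribosomal proteins were lower. TUFM, the elongation factor that delivers tRNAs to the ribosome, had 0, 3 and 9 counts in KO, against 18977, 17336 and 15860 in WT, and 79 of the 82 ribosomal proteins were at 0 in KO, MRPL12 and MRPS21 among them.

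The nuclear subunits of the same complexes gave the 2 exceptions. Of 75 tested, 73 were lower in KO, 1 was higher and 1 passed in neither direction, where 88.0% of all tested genes were lower and 7.63% higher. Counts were 0 in every KO library for 63 of them, where this held for 71.3% of all tested genes, and the list had a median log2 ratio of -5.50. ATP5MC3, one of the genes for the ring subunit of ATP synthase, had 1955, 1991 and 2048 counts in KO libraries 1, 2 and 3, against 4448, 4371 and 4295 in the WT libraries. That is 2515 ± 271 CPM in KO libraries and 69.7 ± 1.8 CPM in WT libraries (SD, n = 3 each), 36.1-fold higher in KO (log2 change 4.78, SE 0.098, edgeR adjusted p = 1.0e-06). It alone held most of the summed nuclear subunit level in KO, which was 2691 ± 295 CPM in KO and 5970 ± 68 CPM in WT.

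NDUFS1, the largest subunit of complex I, had 97, 141 and 101 counts in KO and 5627, 6026 and 5867 in WT, which is 141 ± 22 CPM in KO and 93.0 ± 2.3 CPM in WT. Its log2 change was 0.21 (SE 0.16, edgeR adjusted p = 0.22), and its direction followed the scaling, with -0.34 under median-ratio size factors and 0.60 under library totals. These choices moved the median log2 change of the 1474 genes with a count in all 6 libraries by -0.56 and 0.40, and NDUFS1 moved with it. Without ATP5MC3 and NDUFS1 the other 73 nuclear subunits summed to 35.5 ± 30 CPM in KO and 5807 ± 70 CPM in WT. Of the best expressed nuclear subunits in WT, UQCRH and CYC1 of complex III and NDUFS5 and NDUFB7 of complex I were at 0 in KO. COX8A of complex IV had 0, 4 and 0 counts in KO and ATP5F1B, the catalytic subunit of ATP synthase, had 12, 0 and 26, against 40704, 42314 and 41965 in WT.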

How the data were processed

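RNA of 3 OTULIN KO and 3 WT libraries was analysed, grouped by the genotype in their labels. The authors deposited whole-number counts per gene, not normalized, and FPKM, per the file headers. The build hg38 and, without roles, StringTie 1.3.4d, HISAT2 2.0.4, DESeq2 and cutadapt 1.9 are named in the submitters' processing notes. The sources used here do not give the annotation release, the strandedness or the treatment of reads with several matches. Within a WT library the deposited FPKM of the mitochondrial genes with enough counts were proportional to count over gene length. The length behind the FPKM of nuclear genes is not given.

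The members, the nuclear gene lists and the tests were chosen with earlier results of these data known. Counts were fitted with edgeR 4.0.16 (glmQLFit and glmQLFTest, R 4.3.3), TMM factors, total counts as library sizes and genotype as the only term, over the 10820 of 32862 genes whose mean reached 1 FPKM. A gene was called where its adjusted p (Benjamini-Hochberg) was under 0.05. Standard errors divide the size of the log2 change by the root of F, and can be smaller than counting error alone would give. CPM are counts over the library total, and folds are ratios of mean CPM. The floor of 3 counts is 3.48 to 4.13 CPM in single KO libraries and 0.0466 to 0.0486 CPM in WT libraries. Intervals and floors cover counting error only, under a counting model that was not formally tested. No KO value of the mitochondrial genes was 1, so the intervals may be too narrow. Replicate pairs differed by 15.5 to 41.7 chi-square units per degree of freedom, so no library was counted again.

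The text names all mRNAs and rRNAs, the 4 tRNAs with the most WT counts and the 2 with the fewest. Per nuclear list it draws on the 2 members with the highest WT FPKM and the 2 with the most KO counts, plus POLRMT, TFAM, TFB2M and LRPPRC. Of the nuclear copies it names the 3 with the most WT counts. Alternatives were no filter, at least 5 FPKM, median-ratio factors, library totals, DESeq2 1.42.0, limma 3.58.1 on log2(FPKM + 1) and log2(FPKM + 0.1), a replicate block and leaving out each library. Leaving out the 18S loci from the fit, and adding nuclear copies to their mitochondrial genes, were chosen after seeing the data. Python 3.11.15, numpy 2.4.6, pandas 2.3.3, scipy 1.17.1 and matplotlib 3.10.9 did the rest.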

Additional observations from a re-analysis of the deposited data

How the results depend on the processing

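All 37 genes were called lower in KO under 9 of the other settings, and 36 (without MT-TW) under library totals, DESeq2 and each fit without 1 KO library. The replicate numbers did not pair the libraries (correlations of same-numbered deviations 0.024, -0.030 and 0.024). With the replicate block 13 mitochondrial genes, 0 genes for mitochondrial gene expression, 1 nuclear subunit and 1 nuclear copy were called lower, among 289 of all genes lower and 452 higher, with residual freedom reduced by construction. With the filter at 5 FPKM 88 genes for mitochondrial gene expression and 4 nuclear copies were called lower, all that were then tested. The KO minus WT difference in mitochondrial share was -8.51 points of counts and -31.41 points of summed FPKM. The WT ratio of highest to lowest mRNA was 14.2 without MT-ND6. NDUFS1 was at -0.11 with at least 5 FPKM, -0.34 with median-ratio factors and -0.35 with DESeq2 (called lower, adjusted p = 0.010), and was called higher with library totals (0.60), with limma (0.49 and 0.54) and without KO library 1 (0.35). The rRNA share difference was -9.87 points of mitochondrial counts, -5.24 points of summed FPKM (exact permutation p = 0.2) and -13.2 to -6.81 points without 1 library. Leaving out 1 WT library gave rRNA to mRNA ratios of 0.701 to 0.786, and 8 to 10 separated mRNA pairs. Of 225 values for the 15 mRNAs and rRNAs under the alternatives 223 kept direction and call, the exceptions being MT-ND3 and MT-ND6 under the replicate block (adjusted p 0.070 and 0.060). With 27 to 39 mitochondrial counts in a KO library, depth limits the make-up of the KO counts and leaves tRNAs at bounds.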

Other observations

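Nuclear copies of mitochondrial genes were counted in WT cells. These pseudogenes are stretches of mitochondrial DNA inserted into the chromosomes. The table held 76 of them, all at 0 in every KO library, where 71.3% of all tested genes were. By edgeR 8 were tested and 8 called lower in KO, beside 88.0% of all tested genes. The untested copies had WT means of at most 18.3 counts, so their zeros carry no information at the KO depth. In WT they summed to 2.25% ± 0.017 of the mitochondrial counts (SD, n = 3), which would give 2.30 counts beside the 102 mitochondrial counts of the KO libraries. A block of 7 copies on chromosome 1 from 629062 to 634922 (GRCh38) held 99.4% of these counts in WT libraries 1, 2 and 3.

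Within that block the copies took very unequal parts of the reads. MTATP6P1 had 70538, 70734 and 68352 counts in WT libraries 1, 2 and 3, which is 16.1% ± 0.12 of its own and MT-ATP6 counts together (SD, n = 3). MTND2P28 took 8.78% ± 0.16 beside MT-ND2, and MTCO1P12 1.44% ± 0.037 beside MT-CO1. MTCO2P12, which lies between MTCO1P12 and MTATP6P1, took 0.026% beside MT-CO2. The identity to the mitochondrial gene was 98.5% for MTATP6P1 (10 mismatches over 681 bases), 98.4% for MTND2P28, 98.7% for MTCO1P12 and 98.2% for MTCO2P12. Whether these are transcripts of the copies or reads of the mitochondrial genes was not tested, and MTCO2P12 was chosen after its values were seen. Adding the copies to their mitochondrial genes put MT-ATP6 at 9324 FPKM, above MT-CO2 at 8941 FPKM, and left every other place in the WT mRNA order as it was.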
